A study of Mus musculus with 4 samples.

Results

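The regions described here are stretches of the genome from which Cufflinks, a program that assembles transcripts from aligned reads, built a transcript that belongs to no annotated gene. They were taken from the 2 libraries of mouse liver at E15.5. An assembled isoform was kept when its Cufflinks gene held no annotated (Ensembl) isoform in the same library, its length was at least 300 bases, its quantification status was OK and its level was at least 1 FPKM (fragments per kilobase of isoform, scaled to the mapped fragments of the library). The members were thus chosen by measured values, the FPKM and the assembled length, and their levels above the minimum are a description. This gave 28440 isoforms of 301774 in the library labelled Adar1-/- and 39269 of 289174 in the library labelled Adar1-/- Mavs-/-. Isoforms of both libraries that shared at least 1 base were merged, which left 54955 regions. The study holds 4 libraries of total RNA, 1 for each group: both livers carry the strain label C57B6/J, and the other 2 libraries are whole embryos at E11.5, labelled Adar1-/- and Adar1-/- Mavs-/- with the strain label C57B16/N. The loss of Adar1 is therefore labelled for all 4 libraries and no library of wild-type tissue was analysed here. With 1 library a group there is no replicate spread and no test; differences are given by their size.

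Adar1 encodes an RNA editing enzyme that turns adenosines of double-stranded RNA into inosines. Mavs encodes the mitochondrial adaptor through which the sensors RIG-I and MDA5 signal. Total RNA holds spliced messengers and also introns of unfinished transcripts, primary transcripts of microRNAs, repeat-derived RNA and small structural RNAs. A microRNA is cut from a long primary transcript that is often unspliced or quickly processed, so that annotations may hold the hairpin without the transcript around it. Fetal liver at this age is the main site of red cell formation and holds both erythroid cells and hepatocytes.

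The labels and tissue were checked first. Adar had 5.56 FPKM in the library labelled Adar1-/- and 4.11 FPKM in the library labelled Adar1-/- Mavs-/-, with 0 and 3 of its 8 annotated isoforms above 0; the deposited values do not say which exons the fragments came from. All 8 hepatocyte markers were at 353 FPKM or more in both libraries (Alb, serum albumin, at 4787 and 6648 FPKM), and the 4 erythroid markers with a value were at 108.7 FPKM or more. The 7 skeletal muscle markers with a value summed to 71.4 FPKM in the library labelled Adar1-/- and to 1.4 FPKM in the second library. The 7 neural markers summed to 7.21 and 3.07 FPKM, and the 5 lung and gut markers to 2.21 and 0.152 FPKM. The part of these differences in the results below was not tested. Fewer cells of a type and less RNA per cell cannot be told apart in such bulk samples.

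Of 1194 annotated microRNA isoforms, 38 (3.18%) lay wholly inside 31 of the regions, and 19 of these 31 regions were assembled in both liver libraries. The mature microRNAs below, from RefSeq, are examples of those whose hairpins lay inside unannotated regions of 5134 bases or more that both libraries held. Others that met this condition, such as those of Mir652, Mir421, Mir374b and Mir1931, are not shown. Each example is printed 5′ to 3′ with the seed, bases 2 to 8, in capitals. The hairpins of the let-7 pair lay in 1 region of 14430 bases, and the pair shares its seed:
let-7a-5p: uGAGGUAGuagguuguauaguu
let-7d-5p: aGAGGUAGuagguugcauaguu
The hairpins of the miR-30 pair lay in 1 region of 36741 bases, and this pair also shares its seed:
miR-30a-5p: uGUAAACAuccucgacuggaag
miR-30c-5p: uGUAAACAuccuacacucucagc
The hairpins of the other 3 lay in regions of their own, and each microRNA has another seed:
miR-7a-5p: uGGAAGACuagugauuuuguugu
miR-148a-3p: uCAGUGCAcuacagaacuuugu
miR-744-5p: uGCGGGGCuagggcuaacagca

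All regions were of 1 form. In neither library did any unannotated isoform have a span above its length, so every one was a single block without a splice junction, and no spliced member could be named. Assembled isoforms placed in annotated genes differed in this respect, with a span above the length in 64.1% and 65.9% of them. Because the files hold no strand and no exon positions, a region inside an annotated gene cannot be assigned to an exon or an intron here. Only 187 of the 54955 regions held a whole annotated isoform of more than 1 exon.

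Most of these isoforms were short and weakly represented. The median level was 1.31 FPKM in the library labelled Adar1-/- and 1.34 FPKM in the library labelled Adar1-/- Mavs-/-, and 83.2% and 82.5% were below 2 FPKM. Between 1 and 1.05 FPKM, just inside the threshold, stood 3088 and 3823 isoforms, against 3640 and 4243 just outside it, between 0.95 and 1 FPKM. Isoforms of 300 to 309 bases numbered 2058 and 1882, with medians of 1.31 and 1.58 FPKM, against 2023 and 1851 isoforms of 290 to 299 bases, with medians of 1.42 and 1.70 FPKM. The lower limits of level and length therefore fell inside a continuous distribution. A further 1417 and 2143 isoforms met every other condition and were left out by their status. The upper end was thin, with 570 and 600 isoforms of at least 10 FPKM and 71 and 75 of at least 100 FPKM. Together the isoforms held 7.5% and 7.67% of the product of FPKM and length summed over each library.

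Length ran from 300 to 99845 bases in the library labelled Adar1-/- and up to 96524 bases in the library labelled Adar1-/- Mavs-/-, with medians of 460 and 473 bases. Isoforms under 500 bases made up 54.2% and 53.0%. The 170 and 143 isoforms of 20000 bases or more were 0.598% and 0.364% of the isoforms but carried 13.6% and 15.1% of their summed FPKM and length product. The median level was higher in this longest class, at 2.49 and 2.94 FPKM, than in the class from 300 to below 500 bases, at 1.31 and 1.36 FPKM. Precision followed length: the deposited upper bound lay a median of 44.7% and 47.1% above the FPKM for isoforms under 500 bases and 3.94% and 4.01% above it at 10000 bases or more. These bounds belong to 1 library each and hold no difference between animals; errors given below as ± are the distance from the FPKM to the upper bound.

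**Figure D1:**
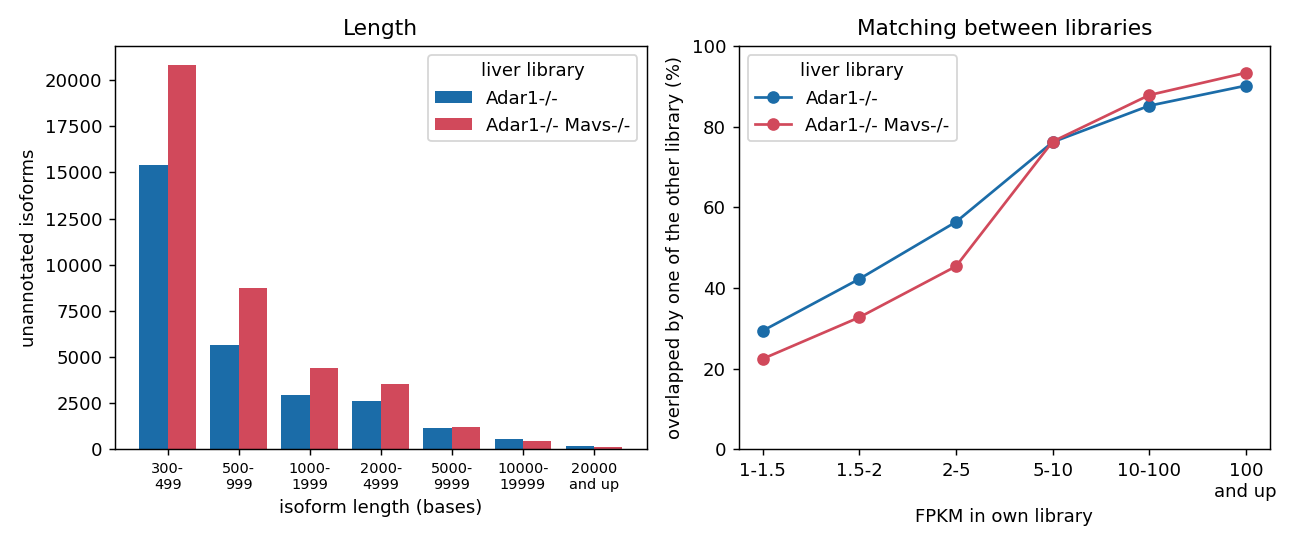
Left, number of unannotated isoforms (y axis) by length in bases (x axis) in each liver library. Right, share of them, in percent, overlapped by such an isoform of the other liver library, by FPKM. Counts fall with length in both libraries, and the matched share climbs from 29.4% and 22.4% at 1 to 1.5 FPKM to 90.1% and 93.3% at 100 FPKM or more.

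The 2 liver libraries had 9421 regions in common, 17.1% of all regions (exact 95% interval 16.8 to 17.5%, counting error only). A further 17875 regions held isoforms of the library labelled Adar1-/- alone and 27659 of the library labelled Adar1-/- Mavs-/- alone. Matching depended on level. In the library labelled Adar1-/-, 29.4% of isoforms between 1 and 1.5 FPKM and 90.1% of those of at least 100 FPKM were overlapped by one of the other library. The corresponding shares in the library labelled Adar1-/- Mavs-/- were 22.4% and 93.3%. The matched share also differed by length: 20.9% and 18.2% of isoforms from 300 to below 500 bases were matched, against 78.8% and 65.6% of those from 5000 to below 10000 bases. A match needed an overlap of only 1 base, so that a longer isoform had more room for one. The library labelled Adar1-/- had a median coverage per FPKM, which scales with depth, of 8.58 against 7.13 in the other, and it had the smaller number of isoforms that met the rule. The part of depth in these counts was not tested.

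Being in 1 library by the rule did not mean absence from the other. Of the 17875 regions with isoforms of the library labelled Adar1-/- alone, 9483 (53.1%) overlapped an unannotated isoform of the other library that missed the rule, with a median length-weighted level of 0.697 FPKM. In 3069 more the other library had an assembled isoform placed in an annotated gene, and in 5323 (29.8%) it had no assembled isoform. For the 27659 regions of the library labelled Adar1-/- Mavs-/- the counts were 14245 (51.5%), 4887 and 8527 (30.8%). No isoform of any kind, annotated ones included, was listed by the other library at 1213 and 876 regions.

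The highest of these last regions were short. A region of 675 bases at chr12:102459958-102460632 (mm9, as all positions here), 1170 bases from Gm22749, had 14.0 ± 1.12 FPKM in the library labelled Adar1-/-, with no isoform listed by the other. At chr4:138900764-138901111, 104 bases from Ccnd3-ps, the level was 12.3 ± 1.92 FPKM. In the library labelled Adar1-/- Mavs-/-, chr3:157609934-157610251 had 9.61 ± 2.08 FPKM, 127 bases from Ankrd13c, and chr11:120966902-120967252 had 7.41 ± 1.62 FPKM, 209 bases from Gm11793. A region of 831 bases with 3.53 ± 0.535 FPKM lay 132 bases from Slc40a1, the gene of the iron exporter ferroportin. Without a count or a depth in reads, no floor can be given for the library that lists nothing.

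By position, 43450 regions (79.1%) overlapped the span of an annotated gene, 5911 (10.8%) lay outside such spans but within 10 kb of one, and 5594 (10.2%) were farther away. Regions farther away were shared more often: 32.8% of them were assembled in both libraries, against 20.8% of those within 10 kb and 14.6% of those inside spans. Among the 9421 shared regions 67.5% were inside spans and 19.5% farther than 10 kb. Long and abundant regions had opposite positions. Of the regions of at least 10000 bases, 1040 were inside spans, 21 near and 21 farther away. Of those of at least 100 FPKM in either library, 38 were inside, 40 near and 98 farther away. This level is the mean over the region, weighted by overlap length, and also counts unannotated isoforms that missed the rule. Only 71 and 75 isoforms that met the rule reached 100 FPKM, so that many of these positions rest on isoforms that missed it. Of the 75 shared regions that reached 100 FPKM, 66 lay outside annotated spans. The longest region beyond 10 kb, chr12:32768297-32809250 with 40954 bases, lay 22136 bases from Prkar2b, a regulatory subunit gene of protein kinase A, and had 9.10 ± 0.0972 and 9.64 ± 0.109 FPKM.

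Regions inside spans were spread over 7456 genes, of which 2460 held 1 region and 1176 held 10 or more. Protein-coding genes listed at 0 in both libraries held a region in 8.01% of cases and those above 0 and below 1 FPKM in 11.8%. The share was 56.2% for genes of 1 to 5 FPKM, 67.5% for genes of 5 to 20 FPKM and 28.1% for genes of 20 FPKM or more. The median span was 28.3 kb in the class of 5 to 20 FPKM and 18.8 kb in the highest class. Among genes of at least 5 FPKM the share went from 11.6% for spans under 10 kb to 92.8% for spans of 100 kb or more. Genes of 5 to 20 FPKM and genes with long spans thus held a region most often. How many regions lay in such genes was not counted. The part of span in the lower share at 20 FPKM or more was not tested.

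The longest regions lay inside large genes. Sox6, which encodes a transcription factor that silences embryonic globin genes in red cell precursors, spans chr7:122614858-123182258 (567401 bases) and held 13 regions, 5 of them in both libraries. Unannotated isoforms that met the rule covered 31.0% of the span in the library labelled Adar1-/- against 40.2% in the other. The mean level over the 13 regions was 5.86 FPKM in the first and 8.66 FPKM in the second, while the gene itself, from its annotated isoforms and those assembled with them, had 22.8 ± 0.352 and 11.7 ± 0.175 FPKM. The longest region of Sox6, chr7:122739229-122841987 with 102759 bases, had 7.45 ± 0.0577 and 9.25 ± 0.0726 FPKM. Next to it, chr7:122665923-122732542 with 66620 bases had 3.97 ± 0.0502 and 8.08 ± 0.0784 FPKM, where unannotated isoforms covered 67.1% and 99.9% of the region. In each of the 13 regions the level in the library labelled Adar1-/- Mavs-/- was the higher one, although the gene level was lower there. Of the 13, 8 met the rule in that library alone, so that the rule favours this direction in them. Among these 8, regions of 21916 and 3574 bases were covered to 100% in the library labelled Adar1-/- too. Their levels there were 3.45 and 3.56 FPKM, from isoforms that missed the rule and are not in the 31.0%.

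**Figure D2:**
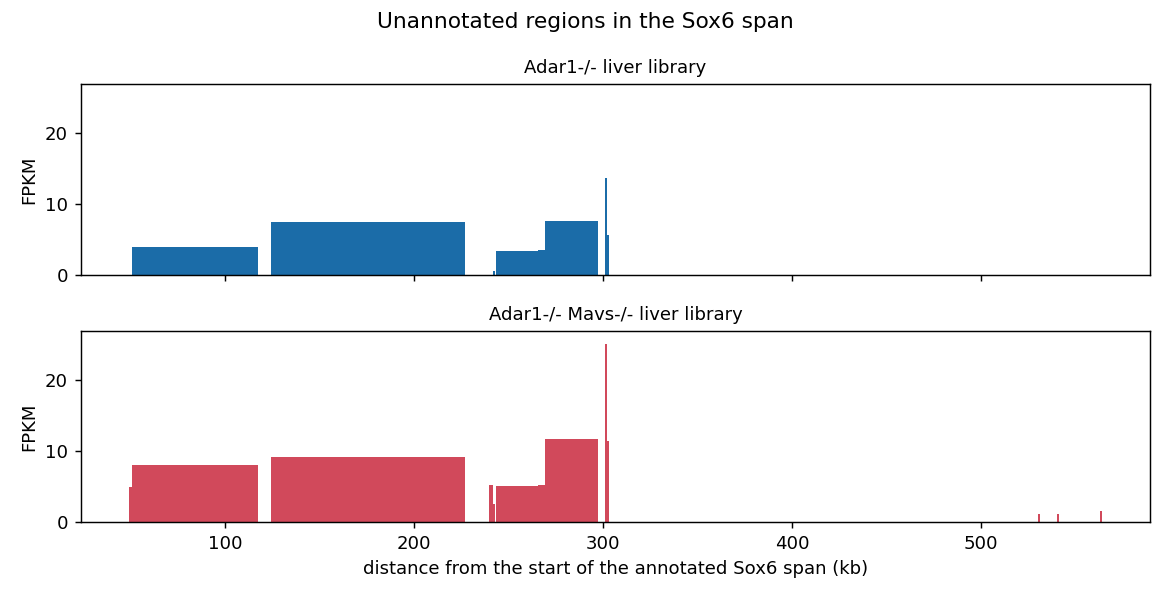
FPKM (y axis, mean over each region) against distance in kb from the start of the annotated Sox6 span (x axis) in the library labelled Adar1-/- (top) and the library labelled Adar1-/- Mavs-/- (bottom). Blocks are regions, drawn at least 1 kb wide; the block of 102759 bases stands at 7.45 FPKM above and 9.25 FPKM below.

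Other long runs were as large. Specc1, a gene for a coiled-coil cytoskeletal protein, had 56.1% and 61.7% of its span covered, at a mean of 3.03 and 3.29 FPKM over 8 regions. Zdhhc14, an acyltransferase gene, had 73.8% and 74.2% covered, at 2.28 and 2.45 FPKM over 25 regions. St6galnac3, a sialyltransferase gene, held 84 regions, 37 of them in both libraries, at 2.08 and 1.55 FPKM. In Slc25a21, which encodes a mitochondrial oxodicarboxylate carrier, 24 regions had 2.49 and 2.41 FPKM while the gene had 9.33 ± 0.180 and 24.6 ± 0.288 FPKM. Mean levels over these runs stayed within a 1.5-fold range between the libraries, including in Slc25a21, where the gene's values did not. These means join shared regions with regions that had a value in 1 library alone. In Slc25a21, 22877 bases had 6.96 and 0 FPKM, while the longest shared region, of 41097 bases, had 2.76 and 4.11 FPKM. In Specc1, 34590 bases had 6.34 and 0 FPKM, while 11556 bases had 0 and 1.87 FPKM. The means therefore do not show that single regions kept their level.

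Single regions could fill most of a gene. In Tlk1, which encodes a chromatin-assembly kinase, 1 region of 98562 bases had 5.07 ± 0.0504 and 4.71 ± 0.0495 FPKM. The region of 63087 bases in Zeb2, a transcription factor gene, had 4.38 ± 0.0588 and 4.44 ± 0.0660 FPKM. In Nfia, another transcription factor gene, the longest of all regions (106384 bases) had 3.44 ± 0.0369 and 2.16 ± 0.0340 FPKM. A run of 96524 bases at chr18:56988691-57085214, inside the span of the ubiquitin ligase gene March3, had the highest level of the 12 longest regions: 22.4 ± 0.0989 and 28.3 ± 0.133 FPKM. It met the rule in the library labelled Adar1-/- Mavs-/- alone, since none of the isoforms in the other passed it. There, 2 isoforms with a summed level of 64.5 FPKM covered 72.9% of the region. At such a level and length an isoform misses the rule only by its status. The 22.4 FPKM thus rests at least in part on a quantification that was not OK and is uncertain. March3 itself was listed at 0 in both libraries, as was Dennd1a, whose 40 regions had 1.92 and 2.57 FPKM. Of the 786 genes with at least 20000 bases of regions, 30 were listed at 0 in both libraries and 72 in at least 1; a listed 0 can be a failed estimate, so that it is no evidence of a silent gene.

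Level differences of regions and of the genes around them were compared over the 5389 shared regions whose gene had at least 1 FPKM in both libraries. Across these regions, in 2092 genes, the log2 ratios between the libraries had a Pearson r of 0.06 and a Spearman rho of 0.14, and the log2 levels an r of 0.17 and 0.23. Regions of a gene share that gene and the 2 libraries, so these values are descriptions.

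The 19 shared regions that hold microRNAs were mostly long and had levels within 2-fold between the libraries. Around Mir122, the hairpin of the microRNA that dominates hepatocytes, lay 8640 bases at chr18:65403891-65412530 with 29.7 ± 0.385 and 26.5 ± 0.398 FPKM, the highest level of the 19 shared regions. The region around Mir30a and Mir30c-2, the pair with the shared seed shown above, was chr1:23263771-23300511, outside protein-coding spans, and had 5.88 ± 0.0824 and 8.86 ± 0.111 FPKM. Around Mirlet7d and Mirlet7a-1, at chr13:48626724-48641153, the values were 4.62 ± 0.117 and 5.95 ± 0.146 FPKM. The log2 ratios were 0.50 and 0.29, and scaling by the summed FPKM of annotated genes shifts such ratios by -0.27. Bounds did not overlap at either region, which by the sum was also true of 2772 higher and 1523 lower regions of the 9421 shared ones.

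Hairpins inside protein-coding spans were in long regions as well. Mir7-1 lay in a region of 13460 bases within Hnrnpk, a gene for an RNA-binding protein, with 4.41 ± 0.126 and 4.75 ± 0.144 FPKM. Mir744, within the kinase gene Map2k4, had 3.47 ± 0.123 and 4.33 ± 0.151 FPKM, and Mir652, within Tmem164, had 2.51 ± 0.0577 and 2.47 ± 0.0635 FPKM. The region of Mir148a, outside protein-coding spans, stood near the lower limit at 1.08 ± 0.104 and 0.981 ± 0.101 FPKM. None of the 19 shared regions with a microRNA differed 2-fold or more between the libraries, a call met by 1.37% (higher) and 1.17% (lower) of all shared regions, so that 0 of 19 is near the general share.

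**Figure D3:**
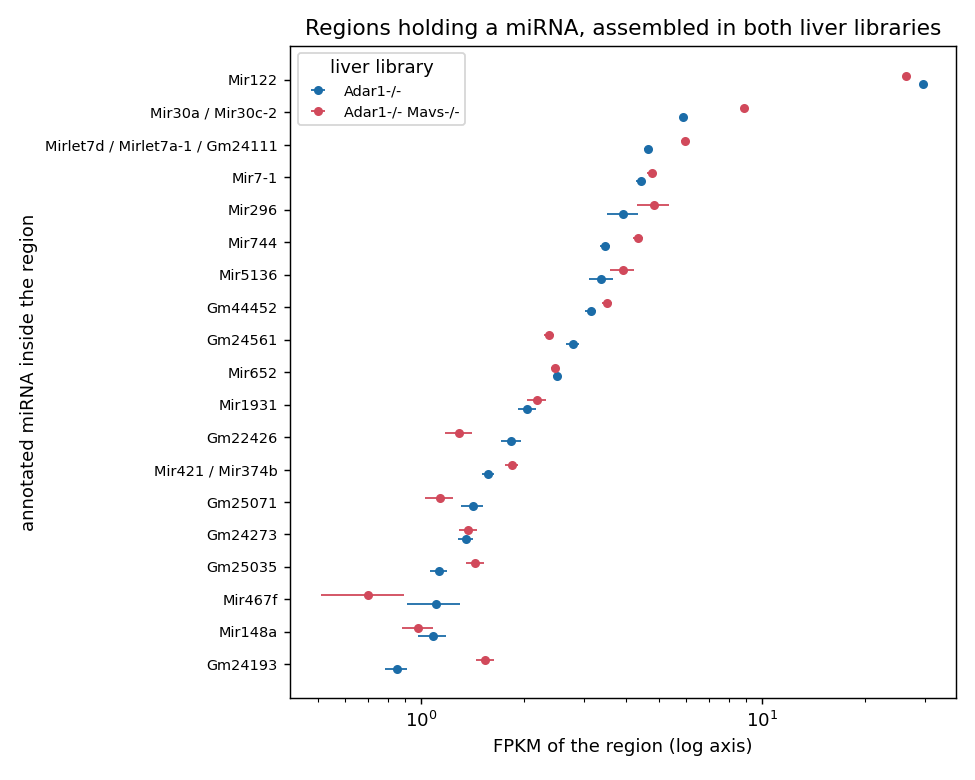
Mean FPKM (x axis, log scale) of the 19 regions that hold an annotated microRNA and were assembled in both liver libraries, 1 row a region with the names of its microRNAs. Points are single libraries and bars the distance to the deposited bounds; Mir122 stands apart at 29.7 and 26.5 FPKM, and the others lie below 9 FPKM.

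In the other 12 microRNA regions the isoforms of 1 library alone met the rule, and in some of these the other library had placed an isoform in an annotated gene instead. The region of 8910 bases around Mir3064, within the RNA helicase gene Ddx5, had 8.53 ± 0.235 FPKM in the library labelled Adar1-/- but no unannotated isoform in the other, where single-exon assembled isoforms placed in annotated genes covered 100% of it at 10.95 FPKM. For Mir5131, within Ddhd1, the same 2 values were 2.71 and 2.92 FPKM. Mir3103 showed the reverse, with 2.91 FPKM unannotated in the library labelled Adar1-/- Mavs-/- and 2.47 FPKM placed in an annotated gene in the other. By contrast, at the regions of Mir16-2 and Mir1306 the other library had neither an unannotated isoform nor a single-exon one placed in an annotated gene. Mir16-2 lay within Smc4, a condensin gene (8.88 ± 0.172 FPKM in the library labelled Adar1-/-). Mir1306 lay within Dgcr8, a gene of the microRNA processing complex (3.09 ± 0.0804 FPKM in the same library). Spliced assembled isoforms of annotated genes were not counted, so that absence from the other library is not shown. Mir351, on the X chromosome, had 4.53 ± 0.444 FPKM in the library labelled Adar1-/- Mavs-/- and 0.00497 FPKM in the other.

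The most abundant regions were of another kind: short, and mostly outside genes. Of 75 shared regions that reached 100 FPKM in 1 or both libraries, 66 were under 1000 bases and 66 lay outside annotated spans. The 19 of at least 500 FPKM were 324 to 1152 bases long, and 15 were outside spans. Of these 19, the library labelled Adar1-/- Mavs-/- had 13 at values lower by 2-fold or more, 5 within 2-fold and 1 higher by 2-fold or more, and these 3 counts were the same under each of the 4 scalings tried. Of the 13, 8 reached 500 FPKM in the library labelled Adar1-/- alone, and the 1 higher region reached it in the other library alone, so that the minimum itself favours a difference there. Of the 9 that reached it in both libraries, 5 were lower and 0 higher. Of 170 annotated genes chosen by the same minimum in either library, 1.76% were higher and 1.76% lower. The 56 shared regions from 100 to below 500 FPKM had 9 higher and 5 lower; of annotated genes of at least 100 FPKM in either library, 5.14% were higher and 3.63% lower.

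At chr16:57391220-57391886, inside the span of Cmss1, a ribosome biogenesis gene, the level was 5967 ± 23.4 FPKM in the library labelled Adar1-/- against 633 ± 8.38 FPKM in the other. A region of 496 bases at chr3:5860338-5860833, 284099 bases from the nearest named gene, Pex2, had 5558 ± 28.5 and 854 ± 12.3 FPKM. At chr11:108872955-108873436, 2860 bases from Gm11668, the values were 4758 ± 27 and 1060 ± 14.0 FPKM. These 3 and the other 10 were lower by a log2 ratio between -2.05 and -3.25. A region within Gphn, the gephyrin gene, at chr12:79451854-79452395 had 3549 ± 21.4 and 597 ± 9.52 FPKM.

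Other regions of like length were flat, though at lower levels than those just named. Among the 5 regions within 2-fold, the highest level in the library labelled Adar1-/- was 915 FPKM. Not all regions near that level were flat: chr6:44742928-44743297 had 912 ± 15.4 and 126 ± 6.27 FPKM. The region of 375 bases at chr19:18001056-18001430, 1171 bases from Gm23061, had 915 ± 15.2 and 893 ± 16.5 FPKM. At chr6:66825255-66825764 the values were 779.9 ± 10.4 and 838 ± 11.9 FPKM, and at chr3:119412433-119412774 they were 619 ± 13.9 and 672 ± 15.9 FPKM. A region of 718 bases on the X chromosome within Rpl7a-ps12, a ribosomal protein pseudogene, had 428 ± 5.95 and 531 ± 7.26 FPKM. Reads of a pseudogene can also match its parent gene, so that this last level is uncertain. The sources used here do not give the treatment of multiply mapped reads for any region. Whether such reads enter the levels of the other regions of at least 500 FPKM, the 13 lower ones included, was not tested.

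Differences between the liver libraries were counted after scaling the library labelled Adar1-/- Mavs-/- by 0.987, which set the median log2 ratio of 6413 annotated genes of at least 5 FPKM to 0, and adding 1 FPKM to both values; FPKM printed here are as deposited, before this step. With the FPKM of the unannotated isoforms of a region summed, 15487 of all 54955 regions were higher by 2-fold or more in the library labelled Adar1-/- Mavs-/- and 9598 lower by as much; under division by the summed FPKM of annotated genes the counts were 10086 and 10032. The same call was met by 7.18% and 10.1% of annotated genes of at least 1 FPKM in either library. These counts of regions follow from the rule: with a minimum of 1 FPKM, a region with no value in the other library reaches 2-fold at once. The shared regions avoid this, and the rest of the comparison is about them.

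Among the 9421 shared regions, 971 were higher and 341 lower, by 2-fold or more, on the sum (655 and 519 under division by the summed FPKM of annotated genes), against 2.78% and 5.78% of annotated genes of at least 1 FPKM in both libraries. A sum counts each fragment of a run as a whole, so a run broken into more pieces gets a higher value. By the mean weighted by overlap length, chosen after the data had been seen, 129 (1.37%) were higher and 110 (1.17%) lower, with a median log2 ratio of -0.01. That split turned with the scaling, to 164 and 95 with the upper quartile and to 82 and 168 with the summed FPKM of annotated genes. The 5843 shared regions with 1 isoform in each library had 79 higher and 61 lower. Most shared regions therefore had weighted log2 ratios within 2-fold, with 5% and 95% quantiles of -0.54 and 0.55. The rule favours this, since a shared region passed the minimum of 1 FPKM in both libraries. Most isoforms that met the rule were below 2 FPKM, where the 1 FPKM added to both values narrows the ratios. The few calls are therefore no evidence of stable levels.

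**Figure D4:**
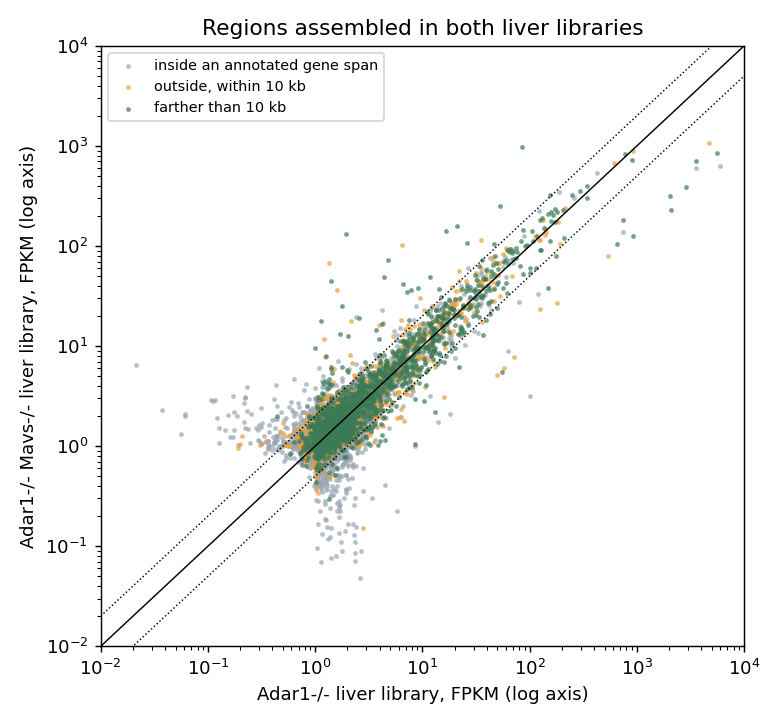
Mean FPKM of the 9421 shared regions in the library labelled Adar1-/- (x axis) and the library labelled Adar1-/- Mavs-/- (y axis), both on log axes, with colours for position relative to annotated spans; the solid line marks equal values and the dotted lines 2-fold. Most points lie between the dotted lines, 13 of the 19 at 500 FPKM or more in either library lie below them, and the points far from the diagonal under 1 FPKM are regions covered in small part by 1 library.

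For long regions the weighted mean also depends on how much of the region was assembled, since a base without an unannotated isoform counts as 0. Of 1713 shared regions of at least 5000 bases, 35 were higher and 38 lower by 2-fold or more on the weighted mean. In 66 of these 73 the library with the lower value had unannotated isoforms over less than 50% of the region, with a median of 13.8% over the 73. The other long regions were covered to a median of 99.1% and 97.0%. Among the 1073 long regions covered to at least 90% in both libraries, 2 were higher and 2 lower; this split uses the coverage that enters the mean and is no separate evidence. The widest gap among regions of this length was in Itga4, the gene of integrin alpha 4, where a region of 46684 bases had 0.0213 ± 0.00653 FPKM over 2.0% of its length in the library labelled Adar1-/- against 6.53 ± 0.0853 FPKM over 100% in the other. Pabpc4, a poly(A)-binding protein gene, showed the reverse, with 5.75 ± 0.120 FPKM over 100% of 19397 bases and 0.224 ± 0.0251 FPKM over 15.0%; with all assembled isoforms summed its log2 ratio turned from negative to 2.08. After single-exon assembled isoforms placed in annotated genes were added, 23 long regions were higher and 32 lower.

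**Figure D5:**
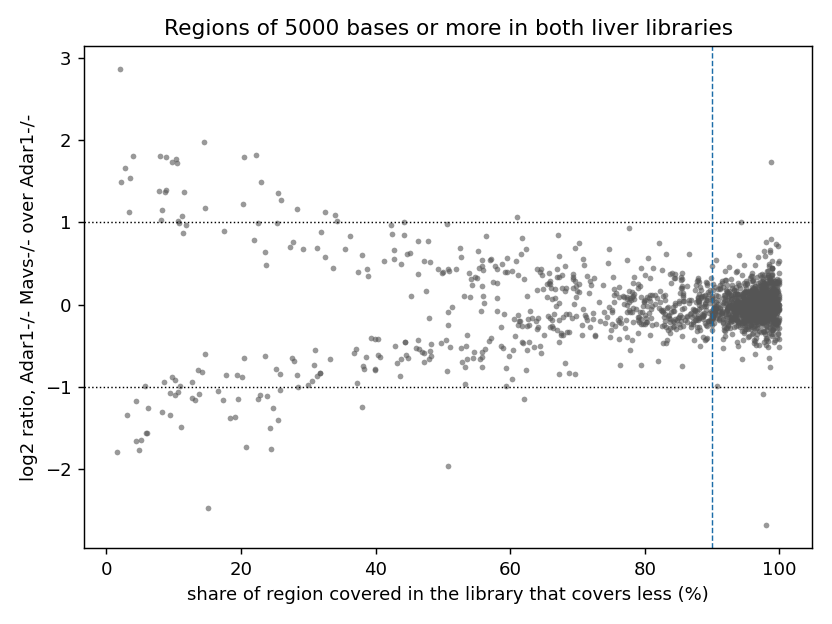
Log2 ratio between the liver libraries (y axis; above 0, higher where the label adds Mavs-/-) for the 1713 shared regions of at least 5000 bases, against the share of the region, in percent, covered by unannotated isoforms in the library that covers less (x axis). Dotted lines mark 2-fold and the dashed line 90%; 4 regions lie outside the dotted lines to the right of 90%.

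The 4 long regions covered in both libraries and past 2-fold were in named genes. In Dennd1a, a gene for an endosomal exchange factor, 20505 bases at chr2:37772304-37792808 had 4.30 ± 0.0943 FPKM in the library labelled Adar1-/- against 16.9 ± 0.205 FPKM in the other. In Hnrnpm, a splicing regulator gene, 38809 bases had 3.62 ± 0.0724 and 8.36 ± 0.105 FPKM, a log2 ratio of 1.0 at the limit of the call. In Camk2b, a kinase gene, 5955 bases had 7.87 ± 0.240 and 3.23 ± 0.171 FPKM. In Arhgap21, 6365 bases had 62.3 ± 0.682 and 9.0 ± 0.275 FPKM, but its longest isoforms, of 4595 and 3853 bases, had 1.51 and 13.8 FPKM, the opposite order; these are different pieces of the region. On the sum, the log2 ratios were 0.24 in Hnrnpm and -0.42 in Camk2b, so that both were past 2-fold on the weighted mean alone. They were not past it under every scaling either: with the upper quartile 2 regions were higher and 1 lower, and with the summed FPKM of annotated genes 1 was higher and 3 were lower.

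Short regions had a different limit. Of 4703 shared regions under 1000 bases, 121 were called, 69 higher and 52 lower. An isoform under 300 bases, too short for the rule, overlapped 74 (61.2%) of these 121 in at least 1 library and 191 (4.06%) of all 4703. The most extreme ratio was such a case: at chr7:126559192-126560026 the weighted level was 1.92 ± 0.380 FPKM in the library labelled Adar1-/- against 133 ± 35.0 FPKM in the other, where an isoform of 101 bases was listed at 1094 FPKM. With the isoforms that met the rule alone its log2 ratio was -0.44. The single region of at least 500 FPKM that was higher, chr17:32989169-32989891, had 85.4 ± 2.64 and 984.7 ± 31.4 FPKM, with an isoform of 166 bases listed at 4143 FPKM, and a log2 ratio of -0.37 without it. On the lower side, chr4:147208234-147208759 within the zinc finger gene Zfp933 had 99.9 ± 42.2 and 3.19 ± 0.723 FPKM, with an isoform of 95 bases listed at 536 FPKM and a log2 ratio of -0.43 without it. Over the 8888 shared regions of any length without an isoform under 300 bases, 59 were higher and 82 lower.

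The gene groups around the regions were described from 8 lists chosen with earlier results of these data in view. A region overlapped the span of 47.3% of all annotated genes of at least 1 FPKM in either library, whose median span was 17.6 kb; counts of list genes below are over the same class of genes. Among erythroid transcription factors it was 5 of 12 genes. Besides Sox6 these were Gata1, the master regulator of red cell genes, with 4 regions at 0.214 and 1.54 FPKM, Bcl11a, a globin switching factor, with 4 regions at 2.42 and 1.71 FPKM, Foxo3 and Ldb1. Of 22 red cell membrane and late erythroid genes 5 held a region; Ank1, the erythroid ankyrin gene, was listed at 0 and held a further one. The 3 regions in the spectrin gene Sptb, the longest of 62597 bases, had a mean of 5.79 FPKM in the library labelled Adar1-/- against 0.0106 FPKM in the other, while the gene had 74.1 and 60.4 FPKM. None of these 3 was shared. Tmod1, which encodes an actin-capping protein of the red cell membrane skeleton, had 3.21 and 2.06 FPKM. Rhag and Rhd, which encode Rh proteins, held 1 region each, with 0 and 10.2 FPKM in Rhag and 4.16 and 0 FPKM in Rhd. Each of these 2 met the rule in the library where it was high, so that its direction was fixed by the rule. The means of Sptb, Gata1 and Bcl11a also hold regions that met the rule in 1 library alone, so that the rule favours a difference there too.

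The lists of globin and heme genes and of secreted hepatocyte proteins, with median spans of 5.2 and 10.3 kb, held few regions. Uros alone of 13 globin and heme genes held any, and 2 of 35 genes of secreted hepatocyte proteins did, Serpina1b and Itih4. Of 33 interferon-stimulated genes, 13 held 29 regions; 14 of these had isoforms of the library labelled Adar1-/- that met the rule, 15 of the other library, and 0 of both, where 14.6% of all regions inside spans were shared. Ifih1, which encodes the sensor MDA5, held 6 at a mean of 1.04 and 0.818 FPKM, and Rnf213, a ubiquitin ligase gene, held 5 at 0 and 1.63 FPKM. Integrated stress response genes had 6 of 20 with a region, among them Mthfd2, a mitochondrial folate enzyme gene, at 2.28 and 0 FPKM over 9686 bases. The regions in Rnf213 and Mthfd2 met the rule only in the library where they were high, so that their direction was fixed by the rule. The remaining lists had 5 of 18 imprinted genes and 3 of 15 skeletal muscle genes with a region. The regions in the muscle genes Myh8 and Ttn were found in the library labelled Adar1-/- alone, at 1.24 and 1.52 FPKM, the library in which the muscle markers were also higher; the part of this tissue was not tested. The region in Neb, the third muscle gene with one, was shared and had 1.29 and 1.4 FPKM. The 8 lists held 15 shared regions in all, and none was called; at the shares of 1.37% and 1.17% over all shared regions, so few regions give little room for a call.

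The embryo libraries, which the rule did not use, allowed a check on chromosomes 10, 11 and 12 (the last up to 11.7 Mb), the part that both embryo libraries cover. Of 6008 regions there, 22.6% overlapped an unannotated isoform above 0 FPKM in the embryo library labelled Adar1-/-, 19.2% in the one labelled Adar1-/- Mavs-/- and 13.3% in both. The 944 shared liver regions were found more often, at 43.4%, 39.7% and 32.9%, than the 5064 regions of 1 liver library, at 18.7%, 15.4% and 9.60%. Long regions were found most often: of 129 regions of at least 10000 bases, 74.4% and 72.1% overlapped an unannotated isoform in the 2 embryo libraries, against 15.7% and 13.1% of 4733 regions under 1000 bases. An overlap of 1 base was enough, so that a longer region had more room for one. The part of this in the difference was not tested. Age, tissue and strain label all differ between the liver and embryo libraries and cannot be told apart.

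Among the regions there, chr11:108872955-108873436 was the highest in the embryo libraries as well, at 24262 ± 96.0 and 20337 ± 66.8 FPKM. A region of 450 bases at chr10:115036373-115036822, 11537 bases from Lgr5, had 2717 ± 154.6 and 1284 ± 70.5 FPKM in the embryo libraries and 64.5 ± 3.35 and 652.5 ± 26.0 FPKM in the liver libraries. In the second liver library no isoform there met the rule, and the value came from 2 isoforms under 300 bases. Of 115 shared liver regions with at least 1 FPKM in both embryo libraries, 5 were higher and 24 lower by 2-fold or more in the embryo library labelled Adar1-/- Mavs-/-, after scaling by 1.32 from 901 genes, with a median log2 ratio of -0.26. Annotated genes of at least 1 FPKM in both embryo libraries met the same call in 3.99% and 6.34% of cases. The part of coverage, of isoforms under 300 bases and of scaling in these embryo counts of regions was not tested. Of the 115 regions, 3 were past 2-fold in both tissues, 1 on the same side and 2 on opposite sides. The liver calls of the 2 opposite ones depended on the processing, as given below.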

How the data were processed

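RNA of 4 libraries, 1 per group, was described by isoform tables that the authors deposited, with FPKM values, their bounds and a coverage (mean read depth) per isoform. The submitters' processing notes name TopHat 1.4.0, Cufflinks 2.2.1, edgeR 3.4.2 and build mm9 without roles; the sources used here do not give assembly options, strand, treatment of multiply mapped reads, the level of the bounds or total reads. Loci were intersected with bedtools 2.31.1, and values were combined with Python 3.11.15 and pandas 2.3.3; locus starts were taken as 0-based because length equalled end minus start, and are printed 1-based. Gene symbols came from GENCODE release 21 identifiers (86.7% of 95037 annotated isoforms matched); its GRCm38 coordinates were not used. Mature microRNA sequences are RefSeq's (GRCm38.p6 table), matched by symbol; Mir122, Mir143 and Mir145a are named only. The region value was the sum, or the overlap-weighted mean, of unannotated isoforms' FPKM; errors are root sums of squares of the distances to the upper bounds. A region was called at a log2 ratio of 1 with a pseudocount of 1. The steps were tested on simulated tables. Regions named were those with the highest level in both libraries, with the widest log2 ratios and bounds apart, in 1 library alone, or highest in the embryo libraries; long regions, genes with the longest runs and microRNA regions were chosen after their values were seen. The members and lists were chosen with earlier results of these data known.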

Additional observations from a re-analysis of the deposited data

Results flagged for a closer look

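Of the 115 regions measured in all 4 libraries, 2 went opposite ways in liver and embryo, each past 2-fold. The region chr10:129102513-129102930 had 10.4 and 22.96 FPKM in liver (labels Adar1-/- and Adar1-/- Mavs-/-, in this order throughout; log2 ratio 1.05) and 19.1 and 3.52 FPKM in the embryo (log2 ratio -1.83), a difference of 2.88 between the log2 ratios. The region chr11:33654369-33655100, inside the span of Kcnip1, had 79.5 and 27.9 FPKM in liver (log2 ratio -1.5 on the weighted mean) and 546 and 1033 FPKM in the embryo (log2 ratio 1.32), a difference of -2.81. At the first region the liver log2 ratio is near the limit of the call. Scaling by the summed FPKM of annotated genes, a shift of -0.27, takes it under 2-fold. At the second region the liver library labelled Adar1-/- Mavs-/- had isoforms over 43.6% of the length, and on the sum the liver log2 ratio was -0.33, which is not past 2-fold. With 1 library a group these differences were not tested.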

How the results depend on the processing

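No paired analysis was possible because each group is 1 library and the labels give no replicate numbers. Counts moved with the limits of the rule. At 2 FPKM, 4792 and 6885 isoforms, 2063 shared regions, 3020 higher and 1387 lower regions (186 and 107 among shared ones) were left; at 0.5 FPKM there were 95538 and 109051 isoforms and 40032 shared regions (3615 higher, 1417 lower). At 1000 bases there were 7406 and 9699 isoforms, 3553 shared regions, 3693 higher and 1369 lower regions (540 and 141 among shared ones); with no minimum length there were 54641 and 61569 isoforms, 19700 shared regions, 28201 higher and 26474 lower regions (3306 and 1906 among shared ones). Division by the summed FPKM of annotated genes, which shifted the log2 ratios by -0.27 (the upper quartile shifted them by 0.14), gave 10086 higher regions and, among shared ones, 519 lower. A pseudocount of 0.1 gave 1562 and 680 among shared regions. Isoforms that met the rule alone gave 27315 higher and 18073 lower regions (544 and 198 among shared ones). Among shared regions the weighted mean gave 129 and 110, at most 1 isoform a library 79 and 61, coverage of 90% in both libraries 18 and 35, and no isoform under 300 bases 59 and 82; these settings were chosen after seeing the data. Summing the isoforms that met the rule alone turned the log2 ratio to -0.44 at chr7:126559192-126560026, -0.41 at chr7:134697901-134701788, -0.11 at chr2:176946447-176946922, 0.30 at chr6:108032610-108033460, -0.64 at chr12:89573199-89573695, -0.37 at chr17:32989169-32989891 and -0.85 at chr5:42325938-42326676, each a region with an isoform under 300 bases; summing all assembled isoforms turned it to 2.08 in Pabpc4 (chr4:122959785-122979181). The share inside spans was 67.9% against annotated isoforms above 0 FPKM and 67.5% among shared regions; the share near a gene was 4.6% within 2 kb, 17.0% within 50 kb and 13.1% among shared regions. The shares found in the embryo libraries were 19.3% and 12.8% at 1 FPKM with status OK, and 43.4% and 39.7% among shared regions. Causes of these shifts were not tested beyond what each setting changes by construction. Bounds near 45% of the FPKM limit what regions under 500 bases can show.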
